A study of Mus musculus with 118 samples.

Results

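The 7 genes described here are *Elfn1* and 6 genes of the metabotropic glutamate receptor family, *Grm2*, *Grm3*, *Grm4*, *Grm5*, *Grm7* and *Grm8*, taken by symbol from the 23998 gene symbols of a read count table. They were followed in single SOM+ (somatostatin-expressing) interneurons of adult mouse neocortex, labeled with the red fluorescent protein tdTomato in SOM-Cre/Ai9 mice and sampled by Patch-seq: a cell is recorded through a patch pipette, its contents are drawn up and its RNA is sequenced. The cells came from layer 4 (L4) and layer 5 (L5) of primary visual cortex (V1) and primary somatosensory cortex (S1), which gave the 4 groups that were compared. A cell was kept if it had at least 1500 genes with a count above 0, *Slc17a7* counts that did not exceed the sum of *Gad1* and *Gad2*, and at least 1 *Sst* count. This rule was met by 34 of 39 sequenced S1 L4 cells, 42 of 44 from V1 L4, 16 of 16 from S1 L5 and 17 of 19 from V1 L5. The Cre line marks cells that have expressed somatostatin at any time, and 4 cells, all labeled as S1 L4, passed the other criteria with an *Sst* count of 0. They are given beside the kept cells.

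No animal is named in the labels. Each of the 4 groups therefore counts as 1 sample, no test was made over cells, and no p-value is given. The date in a cell's title was read as its recording day. There were 9 such days in 2 series, June and July (days 1 to 6) and September (days 7 to 9), and all L5 cells were recorded on days 3 to 6. The spread of a difference was taken from the days that held at least 2 cells of each group; by the study's account there were fewer mice than days, so days may share an animal. Kept cells had 97904 to 3295232 counts (median 1111833) and on average 6383 genes, with median counts of 1199868.5 for S1 L4, 1015272.5 for V1 L4, 1119171 for S1 L5 and 1066008 for V1 L5. Of interneuron markers outside the rule, the GABA transporter gene *Slc32a1* was read in 92.7% of kept cells. *Lhx6*, a transcription factor of somatostatin and parvalbumin interneurons, was read in 88 cells. *Gad1* was read in every kept cell, but it is part of the rule that kept them, so this does not check the label.

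ELFN1 is a leucine-rich repeat protein of the postsynaptic membrane. In somatostatin interneurons of cortex and hippocampus it sits at excitatory synapses, where it binds group III metabotropic glutamate receptors, above all mGluR7, on the incoming axon terminal and sets the low release probability and strong facilitation of these synapses. Metabotropic glutamate receptors fall into group I (among them *Grm5*), which act through Gq and phospholipase C, and groups II (*Grm2*, *Grm3*) and III (*Grm4*, *Grm6*, *Grm7*, *Grm8*), which act through Gi/o and lower cyclic AMP. The reads below come from the content drawn from each SOM+ cell, and reads of other cell types were found among them, as given below. Receptor transcripts of the SOM+ cell would serve its own dendrites and axon. The excitatory cells that contact it were not the cells sampled, and the cell of origin of single reads was not tested.

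*Elfn1* is on chr5:139907943-139974722 on the plus strand in GENCODE M21 (GRCm38), *Grm5* on chr7:87584168-88134907, plus, and *Grm7* on chr6:110645581-111567230, plus. *Grm3* is on chr5:9485541-9725170, *Grm4* on chr17:27422387-27521403, *Grm2* on chr9:106643095-106656082 and *Grm8* on chr6:27275119-28135178, all on the minus strand. Exons of *Elfn1*, *Grm3*, *Grm4* and *Grm5* overlapped those of no other gene, whereas 470 exon bases of *Grm2* were shared with *Gm28111* and 130 of *Grm7* with *Gm20387*, both on the opposite strand, and 96 of *Grm8* with *Mir592*. Strand was not stated for the counting, so reads in those bases cannot be given to one gene or the other. The RefSeq promoter table (GRCm38.p6) held 5 of the 7 genes, with no entry for *Grm4* and *Grm5*. The 250 bases before the transcription start are printed for *Elfn1*, read in most cells, and *Grm2*, read in almost none, to set a gene that was widely read beside one that was hardly read, and capitals mark GGGCGG, the core of the GC box, searched on both strands:
Elfn1: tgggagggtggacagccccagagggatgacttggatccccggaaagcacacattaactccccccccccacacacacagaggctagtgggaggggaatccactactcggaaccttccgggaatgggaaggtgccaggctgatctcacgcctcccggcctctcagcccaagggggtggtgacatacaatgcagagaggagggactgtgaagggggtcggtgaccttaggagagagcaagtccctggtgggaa
Grm2: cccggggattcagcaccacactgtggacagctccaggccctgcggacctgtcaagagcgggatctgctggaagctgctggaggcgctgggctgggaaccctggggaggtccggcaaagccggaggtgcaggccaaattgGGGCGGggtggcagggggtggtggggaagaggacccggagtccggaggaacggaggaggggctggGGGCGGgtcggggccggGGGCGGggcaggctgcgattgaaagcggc
The *Elfn1* window is chr5:139907616-139907865 (plus strand) and the *Grm2* window is chr9:106656110-106656359 (minus strand). The *Grm2* window held 3 copies of GGGCGG, 16 CG pairs and 71.2% G and C, and the *Elfn1* window 0 copies, 6 CG pairs and 60.8%. GGGCGG on either strand was present in 32.7% of 32851 such windows, in which the median was 6 CG pairs, so the *Elfn1* window was at the median for CG pairs. TATAAA was in neither window and in 12.4% of all windows. These matches describe the sequence only.

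*Elfn1* was read in most SOM+ cells of every group. At least 1 read was found in 33 of 34 S1 L4 cells (97.1%, exact Clopper-Pearson 95% interval 84.7 to 99.9), 36 of 42 V1 L4 cells (85.7%, 71.5 to 94.6), 13 of 16 S1 L5 cells (81.2%, 54.4 to 96.0) and, in V1 L5, 12 of 17 cells (70.6%, 44.04 to 89.7). The intervals overlapped between neighboring groups, and like all intervals here they cover counting error only, since reads amplified without molecular identifiers are not independent molecules. Counts scaled to a total of 1000000 per cell (CPM) ran from 0 to 438, with a median of 136.1, in V1 L4 and from 0 to 761, with a median of 228, in S1 L4. They ran from 0 to 368, with a median of 40.9, in V1 L5 and from 0 to 511, with a median of 64.8, in S1 L5. By median, S1 L4 cells were thus the highest and L5 cells the lowest, although single cells of all 4 groups overlapped. Over all reads of a group *Elfn1* made up 248.96 CPM in S1 L4 (exact Poisson 95% interval 244.52 to 253.47), 179.54 in V1 L4 (175.96 to 183.18), 116.99 in V1 L5 (112.21 to 121.92) and 107.05 in S1 L5 (102.49 to 111.76).

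**Figure D1:**
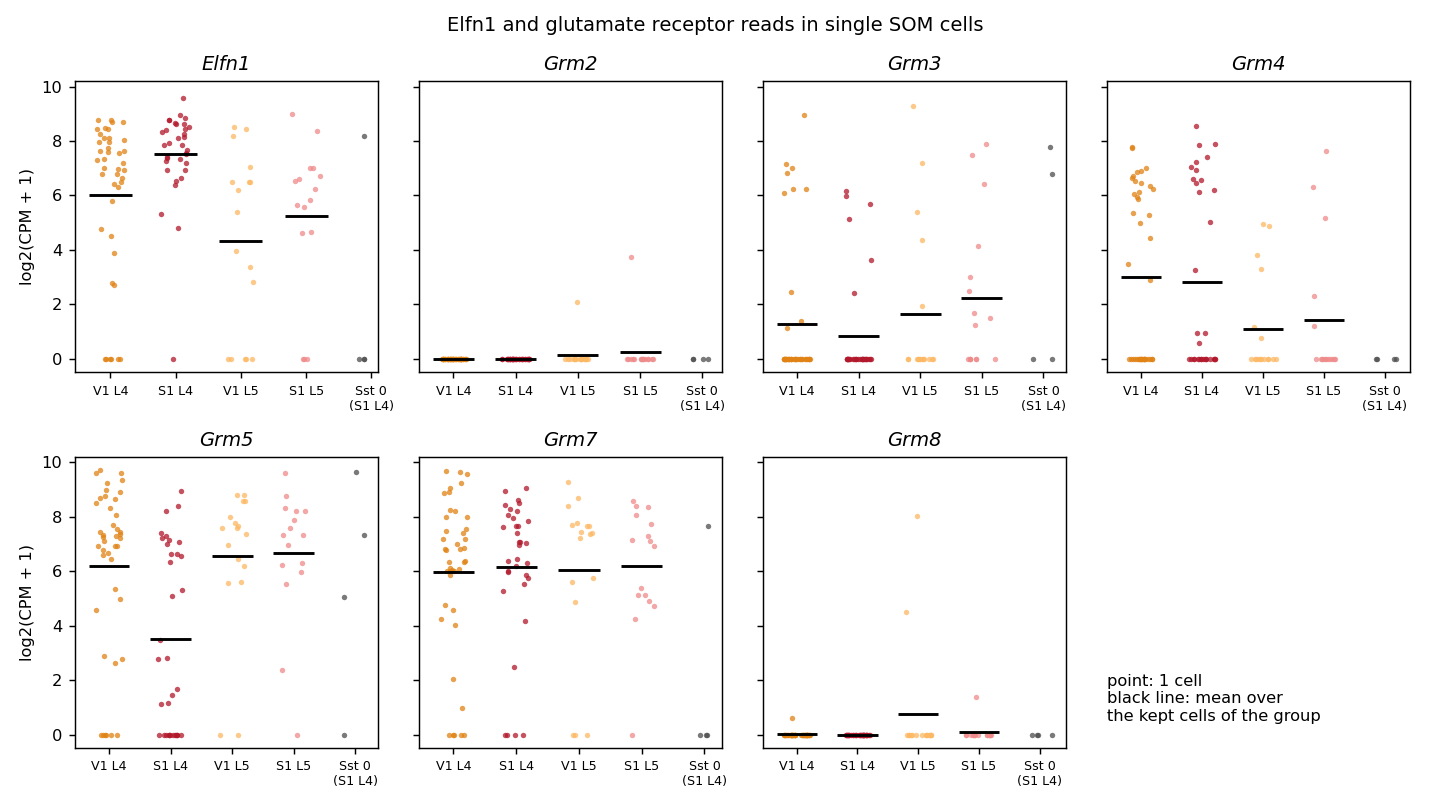
log2(CPM + 1) of each of the 7 genes in single cells, by area and layer, with 1 point per cell and the 4 cells with an Sst count of 0 in grey. Black lines are means over the kept cells. Elfn1 points are densest and highest in S1 L4, the Grm5 mean is lowest in S1 L4 (3.52), and nearly all Grm2 and Grm8 points lie at 0.

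In L4, *Elfn1* was higher in S1 than in V1 and *Grm5* was lower. The mean of log2(CPM + 1) of *Elfn1* was 7.51 in S1 L4 (n = 34 cells) and 6.03 in V1 L4 (n = 42), a difference of 1.48 on this scale. Within recording days the difference was 0.82 on day 2, 4.14 on day 3, 0.50 on day 5, 1.63 on day 7 and 2.22 on day 8, higher in S1 on 5 of 5 days with an SD of 1.44 between days. The overall difference was therefore about as large as the spread between days, and the widest value came from day 3, on which V1 L4 had only 2 cells. No read was found in 6 V1 L4 cells and 1 S1 L4 cell, which enter the means at 0. It was 1.64 over June and July dates and 1.34 over September dates, and 1.25 to 1.69 with any 1 of 9 days left out. With the 4 *Sst* count 0 cells counted in S1 L4 it was 0.91, under the threshold of 1 used below.

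*Grm5* encodes mGluR5, the postsynaptic group I receptor of most cortical neurons in the forebrain. It was read in 22 of 34 S1 L4 cells (64.7%, 46.5 to 80.3), 36 of 42 V1 L4 cells (85.7%, 71.5 to 94.6), 15 of 16 S1 L5 cells (93.8%, 69.8 to 99.8) and, in V1 L5, 15 of 17 cells (88.2%, 63.6 to 98.5). The median was 5.94 CPM in S1 L4 (0 to 489), 149.1 in V1 L4 (0 to 840), 159.5 in S1 L5 (0 to 773) and 190 in V1 L5 (0 to 443). S1 L4 stood below the other 3 groups in detection and in median, and its cells still ranged up to levels common elsewhere. Among cells with a read, the median was 95.2 CPM in S1 L4, 160.98 in V1 L4 and 160.78 in S1 L5, so both the share of cells and the level in them were lower in S1 L4. Group totals were 84.9 CPM (82.3 to 87.6) in S1 L4 and 207 (203 to 211) in V1 L4, and without the highest cell of each 67.0 and 197.

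The mean log2(CPM + 1) of *Grm5* was 3.52 in S1 L4 and 6.202 in V1 L4, a difference of -2.68. It was lower in S1 on 5 of 5 days, by -1.19, -1.91, -3.77, -2.51 and -2.73 on days 2, 3, 5, 7 and 8 (SD 0.96), so the overall difference was 2 to 3 times the spread between days. It was -2.85 over June and July dates and -2.50 over September dates. Only 23 of 9993 genes that passed the filter on low counts (at least 32 counts in at least 10 kept cells) had a larger absolute difference in this comparison. After thinning every cell to 250000 reads, *Grm5* was read in 18 of 34 S1 L4 cells and 36 of 42 V1 L4 cells, and the difference was -2.85.

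To set these values against the whole table, a gene was called where the absolute difference of the means was at least 1 and its sign was the same on every usable day. In the comparison of S1 L4 with V1 L4, 1.22% of the 9993 genes were called higher in S1 and 1.79% lower, and the median difference over all of them was 0.01. Of the 7 genes, *Elfn1* was called higher and *Grm5* lower. The other 5 were not called: the difference was 0.18 for *Grm7* (higher on 2 of 5 days, SD 1.04), -0.18 for *Grm4* (SD 4.22), -0.42 for *Grm3* (SD 1.21), -0.01 for *Grm8* and 0 for *Grm2*, which had no read in any L4 cell. *Grm2* and *Grm8* did not pass the filter on low counts, while the other 5 genes did.

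**Figure D2:**
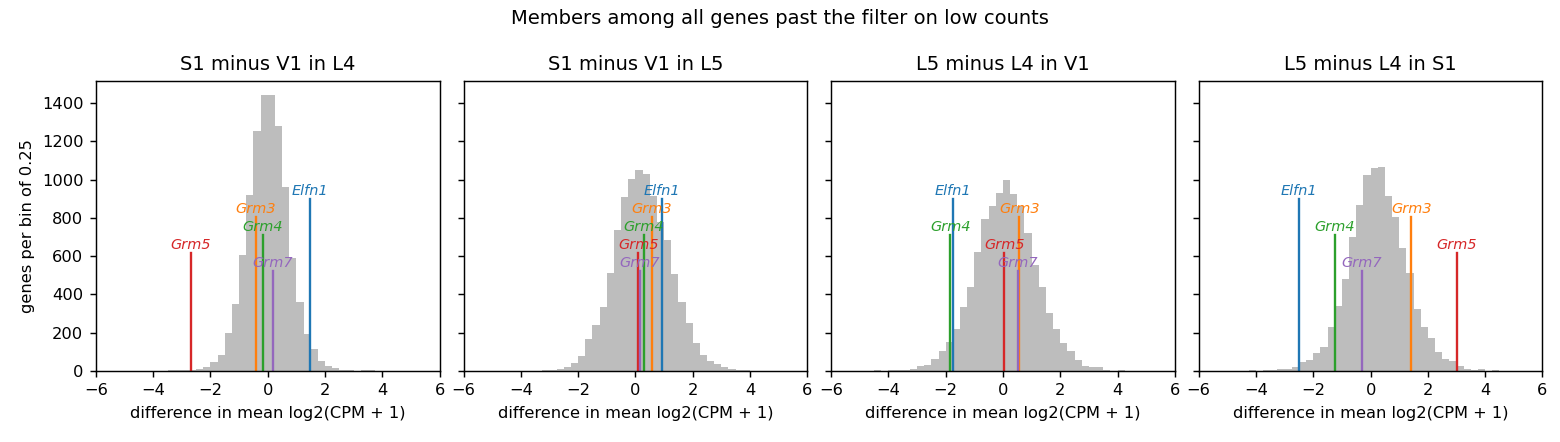
Number of genes past the low count filter (y axis, bins of 0.25) by difference in mean log2(CPM + 1) (x axis) in the 4 comparisons, with Elfn1, Grm3, Grm4, Grm5 and Grm7 marked. Grm5 at -2.68 and Elfn1 at 1.48 lie in opposite tails between the areas in L4, and at 3.01 and -2.49 between the layers in S1.

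In L5 none of the 7 genes was called between S1 and V1, where 7.63% of all genes were called higher and 3.52% lower in S1. *Elfn1* was 5.23 in S1 L5 (n = 16) and 4.32 in V1 L5 (n = 17), a difference of 0.91 that took both signs by day: 5.18 on day 3, -2.69 on day 4, 2.41 on day 5 and -1.99 on day 6 (SD 3.73). With day 3 left out it was -0.53, so no direction can be given. *Grm5* was 6.66 and 6.56, a difference of 0.11 (SD 1.31, higher in S1 on 3 of 4 days). The area difference of *Grm5* was thus -2.68 in L4 and 0.11 in L5. On the 2 days that gave both, it was -1.91 in L4 and 1.15 in L5 on day 3, and -3.77 and 0.76 on day 5. Whether the area difference depends on layer was not tested, because the area and layer groups are single samples.

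Between layers within S1, 4 of the 7 genes were called, 2 in each direction, where 9.88% of all genes were called higher in L5 and 4.17% lower. This comparison used June and July dates only, with 16 cells of each layer, and it shares those S1 L4 cells with the L4 comparison between areas. *Grm5* was 6.66 in L5 and 3.65 in L4, a difference of 3.01, with 4.34, 4.35 and 2.63 on days 3, 4 and 5 (SD 0.99). *Elfn1* was 5.23 in L5 and 7.72 in L4, a difference of -2.49, with -1.07, -2.64 and -2.67 (SD 0.92). The *Grm5* and *Elfn1* differences exceeded the SD between days by more than 2 times in opposite directions. For *Elfn1* the *Sst* count 0 cells mattered, since counting them as S1 L4 brought the difference to -1.36.

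Within V1, *Elfn1* was also lower in L5, with less support from days. It was 4.32 in V1 L5 (n = 17) and 6.08 in the 21 V1 L4 cells of the June and July dates, a difference of -1.76. Only days 3 and 5 held at least 2 cells of each layer and gave -2.11 and -4.58 (SD 1.75), so the overall difference was close to 1 SD. Without day 3 the difference was -0.96, under the threshold. *Grm5* did not differ beyond the spread between days in V1, at 6.56 in L5 and 6.51 in L4 (0.05, SD 2.25, 1.28 on day 3 and -1.89 on day 5). In V1 7.46% of all genes were called higher in L5 and 8.70% lower, and of the 7 genes *Elfn1* and *Grm4* were called lower and none higher.

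**Figure D3:**
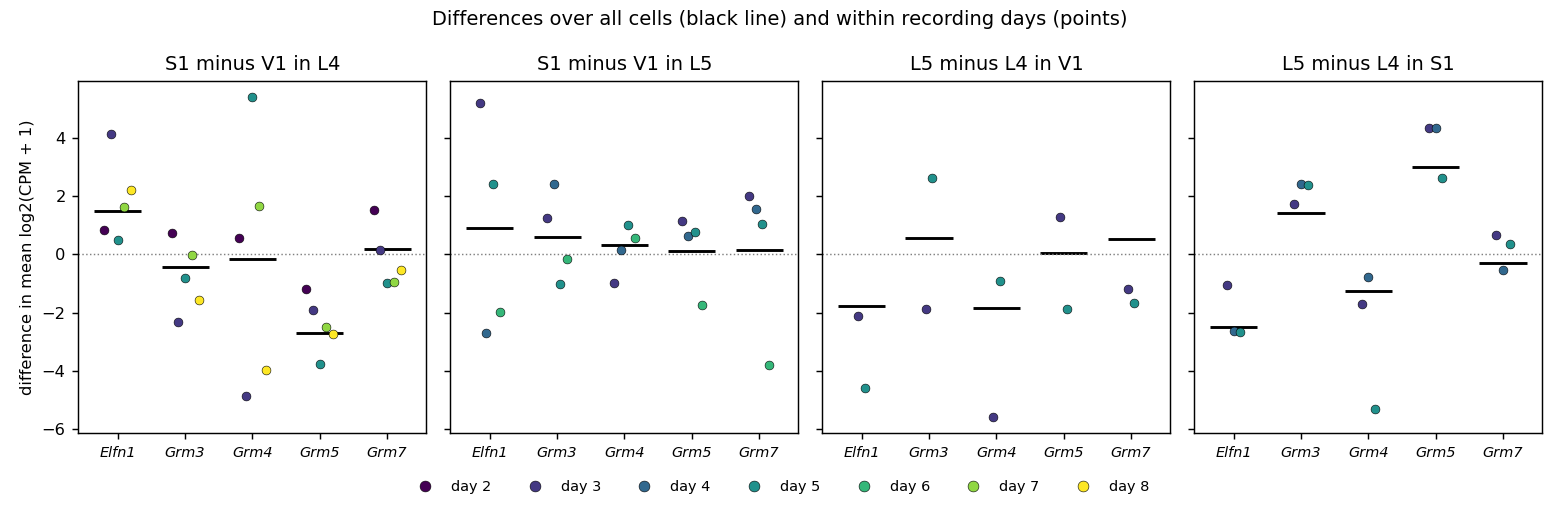
Differences in mean log2(CPM + 1) (y axis) of the 5 genes past the filter in the 4 comparisons, over all cells (black line) and within each recording day with at least 2 cells of both groups (points, colored by day). Grm5 points lie below 0 on 5 of 5 days between areas in L4 and above 0 on 3 of 3 days between layers in S1, and Elfn1 points in L5 lie on both sides of 0.

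The order of *Elfn1* by mean log2(CPM + 1) was S1 L4, V1 L4, S1 L5 and V1 L5. Means of days with at least 2 cells ran from 6.70 to 8.21 in S1 L4, 3.97 to 7.18 in V1 L4, 4.11 to 7.05 in S1 L5 and 1.86 to 7.74 in V1 L5, so each group overlapped with its neighbor. For *Grm5* the order was S1 L5, V1 L5, V1 L4 and S1 L4. Its day means ran from 6.06 to 7.46, 5.37 to 7.81, 5.03 to 7.27 and 2.73 to 5.27 in that order. The first 3 groups did not differ beyond this spread, and S1 L4 overlapped with V1 L4 only through day 2 of S1 L4 (5.27) and day 3 of V1 L4 (5.03).

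*Grm7* encodes mGluR7, the presynaptic group III receptor that ELFN1 binds across the synapse. It was read in 30 of 34 S1 L4 cells (88.2%, 72.5 to 96.7), 37 of 42 V1 L4 cells (88.1%, 74.4 to 96.0), 15 of 16 S1 L5 cells (93.8%, 69.8 to 99.8) and, in V1 L5, 14 of 17 cells (82.4%, 56.6 to 96.2). The median was 126.98 CPM in S1 L4 (0 to 529), 95.5 in V1 L4 (0 to 809), 127.6 in S1 L5 (0 to 378) and 166.7 in V1 L5 (0 to 623). The groups overlapped over most of their range. The mean log2(CPM + 1) was 6.14, 5.96, 6.19 and 6.05 in the same order, and *Grm7* was called in none of the 4 comparisons. Between areas in L5 the difference was 0.15, with 1.99, 1.55, 1.02 and -3.79 on days 3 to 6. Without day 6 it was 1.42, above the threshold with the same sign on the other days, so the missing call in L5 rested on day 6. Between layers it was -0.31 in S1 (SD 0.62) and 0.52 in V1, where both usable days were negative (-1.18 and -1.66).

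*Grm4*, a group III receptor best known from cerebellar granule cells, was read in fewer cells: 17 of 34 S1 L4 cells (50.0%, 32.4 to 67.6), 21 of 42 V1 L4 cells (50.0%, 34.2 to 65.8), 5 of 16 S1 L5 cells (31.2%, 11.02 to 58.7) and, in V1 L5, 6 of 17 cells (35.3%, 14.2 to 61.7). The median was 0.25 CPM in S1 L4 (0 to 372), 3.19 in V1 L4 (0 to 220) and 0 in S1 L5 (0 to 195) and V1 L5 (0 to 29.9). Cells above 100 CPM numbered 7 in S1 L4, 6 in V1 L4, 1 in S1 L5 and 0 in V1 L5, so the high cells lay mostly in L4. The mean log2(CPM + 1) was lower in L5 than in L4 by -1.83 in V1 (-5.60 and -0.92 on days 3 and 5, SD 3.31) and by -1.26 in S1 (-1.71, -0.79 and -5.32 on days 3, 4 and 5, SD 2.397), and both were called. Neither difference exceeded the SD between days, and without day 5 the S1 difference was -0.93. Group totals were 40.02 CPM (38.3 to 41.8) in V1 L4 and 4.67 (3.75 to 5.73) in V1 L5, and 56.4 (54.3 to 58.6) in S1 L4 and 15.2 (13.5 to 17.004) in S1 L5, the last falling to 7.17 without its highest cell.

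*Grm3*, a group II receptor that is also abundant in astrocytes, was read in 6 of 34 S1 L4 cells (17.6%, 6.76 to 34.5), 10 of 42 V1 L4 cells (23.8%, 12.1 to 39.5), 9 of 16 S1 L5 cells (56.2%, 29.9 to 80.2) and, in V1 L5, 5 of 17 cells (29.4%, 10.3 to 56.0). The median was 0 CPM in 3 groups and 1.61 in S1 L5, and the highest cells reached 70.7 in S1 L4, 491 in V1 L4, 233 in S1 L5 and 631 in V1 L5. Most cells thus had no read and a few had many. Between layers in S1 *Grm3* was called higher in L5, by 1.42 (1.71, 2.404 and 2.39 on days 3, 4 and 5, SD 0.40). Reads in S1 L5 were few in most cells: the median among its 9 cells with a read was 6.99 CPM, and after thinning to 250000 reads 5 of 15 cells kept a read. In V1 the layer difference was 0.57, with -1.86 on day 3 and 2.61 on day 5. Of the 7 astrocyte markers 5 had a higher mean in S1 L5 than in S1 L4, by 0.21 to 0.81 (*Slc1a3* by 0.73, SD 1.11), and none of these 5 was called, while *Aldoc* was called lower (-2.20, SD 3.297). Between areas in L5 *Slc1a3* was called higher in S1 (1.76, SD 2.49, 4 of 4 days). The 7 summed to 177.5 CPM in V1 L5, 190 in S1 L5, 385 in S1 L4 and 561 in V1 L4. *Gfap* was read in 5 and *Aqp4* in 7 of all kept cells. Over all kept cells the correlation of *Grm3* with the summed list was -0.07, with group and day means not subtracted. The part of astrocyte RNA in the *Grm3* difference was not tested.

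*Grm2* and *Grm8* were at or near 0. *Grm2*, the other group II receptor, had 0 counts in the 42 V1 L4 and 34 S1 L4 cells, with upper limits of 0.069 and 0.077 CPM for the group totals. It had 6 counts in 1 of 17 V1 L5 cells (3.22 CPM) and 9 counts in 1 of 16 S1 L5 cells (12.5 CPM). *Grm8*, a group III receptor, had 1 count in 1 V1 L4 cell, 0 in S1 L4 and 2 counts in 1 S1 L5 cell. In V1 L5 it had 498 counts in 2 of 17 cells, with 257 CPM in the highest, and the group total fell from 25.8 to 1.03 CPM without that cell. *Grm8* was therefore high in 1 kept cell, and no statement on groups can be made for either gene at this depth.

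**Figure D4:**
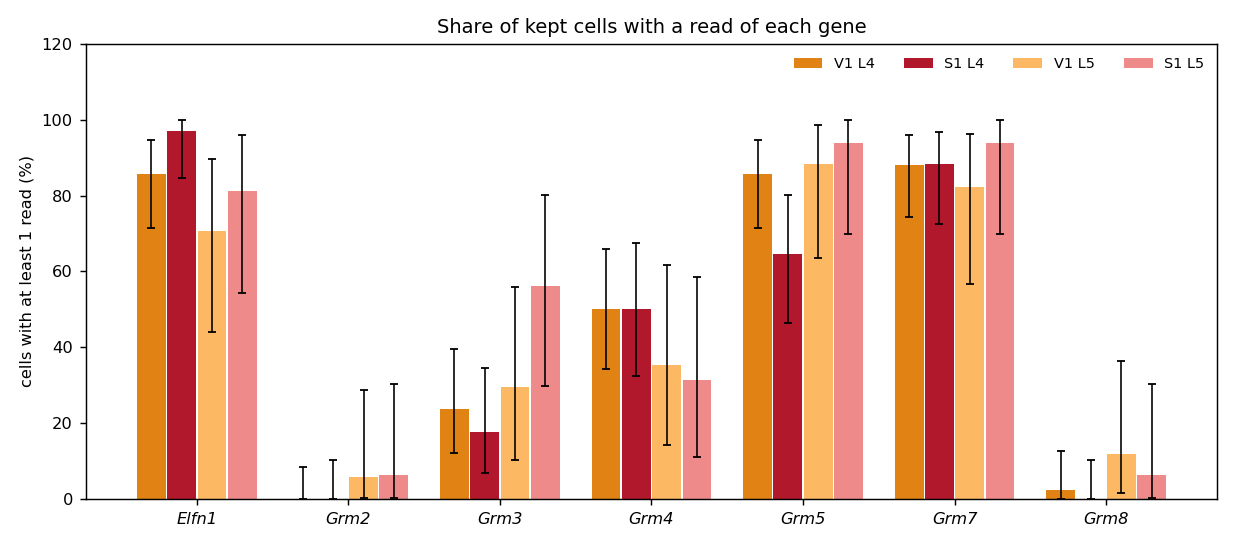
Share of kept cells with at least 1 read of each gene (y axis, percent, bars from 0) by area and layer. Error bars are exact 95% binomial intervals for counting error. Elfn1, Grm5 and Grm7 were read in 64.7% or more of the cells of each group, Grm2 and Grm8 in 11.8% or fewer.

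Levels of different genes were compared only with the deposited RPKM values, which are per kilobase of transcript. In V1 L4 the mean RPKM was 45.7 for *Grm7*, 42.96 for *Elfn1*, 26.8 for *Grm5*, 10.5 for *Grm4* and 7.79 for *Grm3*. Means of 6 recording days ran from 26.8 to 63.0 for *Grm7* and from 32.9 to 53.0 for *Elfn1*, and neighbors in this order overlapped down to *Grm3*. In S1 L4 *Elfn1* came first with 68.4 (54.7 to 91.8 over 7 days), then *Grm7* with 39.8 (15.8 to 66.0), *Grm4* with 14.7 (0 to 49.1), *Grm5* with 8.71 (5.51 to 14.7) and *Grm3* with 2.03 (0 to 4.47). There *Grm5* did not overlap with *Grm3* or *Grm7*, and *Elfn1* did not overlap with *Grm5*. In L5 the order of the highest 3 was *Grm7*, *Elfn1* and *Grm5* in both areas, with 41.95, 23.7 and 22.8 in V1 and 35.1, 29.1 and 24.5 in S1, and day means overlapped throughout.

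A median of 2 of the 6 receptor genes was read per cell in S1 L4, and of 3 in each other group, with at most 4 in any cell and none in 1 S1 L4 cell. *Elfn1* and *Grm7* were read together in 82 kept cells, and *Elfn1*, *Grm5* and *Grm7* together in 67: 20 of 34 from S1 L4, 27 of 42 from V1 L4, 11 of 16 from S1 L5 and 9 of 17 from V1 L5. Across cells their levels were hardly related. With group and day means subtracted, Pearson's r of log2(CPM + 1) over all kept cells was -0.07 for *Elfn1* and *Grm7*, -0.06 for *Elfn1* and *Grm5*, 0.17 for *Grm5* and *Grm7* and 0.18 for *Elfn1* and *Grm4*. The cells share library preparation, and *Elfn1* also followed the total count of a cell (r = 0.32 with log10 of the total), against 0.04 for *Grm5* and -0.10 for *Grm7*. The genes most like *Elfn1* by the same measure were *Lmbrd1* (r = 0.49), *Rhbdd2* (0.48), *Ndrg3* (0.47) and *Vdac1* (0.45). Those most like *Grm5* were *Sema3a* (0.49), *Ptprt* (0.47), *Opcml* (0.47) and *Fzr1* (0.46), and those most like *Grm7* were *Sfpq* (0.47), *Dlg2* (0.42), *Srek1* (0.42) and *Zfc3h1* (0.39). Each was the highest of 9992 genes compared, and none is evidence of a relation.

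Close relatives that are not among the 7 genes were *Grm6*, a group III receptor of retinal bipolar cells, and *Elfn2*. *Grm6* was read in 2 kept cells. *Elfn2* was read in 21 of 34 S1 L4, 24 of 42 V1 L4, 15 of 16 S1 L5 and 8 of 17 V1 L5 cells. In L4 it was not called between areas, with a difference of 0.39 (SD 2.10). In L5 *Elfn2* was called higher in S1, by 3.50 (SD 2.25) and on 4 of 4 days, whereas *Elfn1* was not called. Between layers in S1 *Elfn2* was called higher in L5, by 1.64 (SD 1.61), where *Elfn1* was lower.

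Genes that couple to group I receptors (Homer and Shank scaffolds, Gq, phospholipase C and its targets) were counted by the same rule. Of 18 genes 14 passed the filter. Between areas in L4, 1.22% of all genes were called higher in S1 and 1.79% lower. In L4 only *Ncdn*, which encodes the mGluR5-binding protein neurochondrin, was called, higher in S1 by 1.05 (SD 0.58, 5 of 5 days), and the median difference of the list was -0.13 against 0.01 for all genes. Between layers in S1, 1 gene of the list was called higher in L5 and 1 lower. Of all genes, 9.88% were called higher there and 4.17% lower. The higher one was *Plcb1*, a phospholipase C gene (1.29, SD 1.55), with a list median of -0.13 against 0.24. Between layers in V1 the Shank scaffold gene *Shank2* was called lower in L5 by -1.16 (SD 0.26), with a list median of -0.15 against 0.10. In that comparison 7.46% of all genes were called higher in L5 and 8.70% lower. Between areas in L5 none was called, where 7.63% of all genes were called higher in S1 and 3.52% lower. The list median was 0.41 against 0.22.

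All 17 genes of the list for group II and III receptors (Gi/o subunits, their regulators, adenylyl cyclases, Kir3 channels and the scaffolds *Pick1* and *Grip1*) passed the filter. In L4 none was called between areas, with a list median of -0.40. Between layers 3 were called higher in L5 in each area, where 7.46% of all genes were called higher in V1 and 9.88% in S1. Called lower in L5 were 8.70% of all genes in V1 and 4.17% in S1. *Gnai1*, an inhibitory G protein subunit, was higher by 2.63 in V1 (SD 0.37) and 2.30 in S1 (SD 1.48), and *Rgs7*, which speeds up its deactivation, by 1.64 (SD 0.36) and 2.68 (SD 0.26). The third was *Kcnj3*, a Kir3 channel gene, in V1 (1.74, SD 1.46) and the regulator *Rgs4* in S1 (2.98, SD 1.99). *Grip1* was called lower in L5 in V1 (-1.83, SD 0.89) and the cyclase gene *Adcy2* in S1 (-1.23, SD 1.21). Between areas in L5 *Grip1* (1.16, SD 0.69) and the inhibitory subunit gene *Gnai3* (2.56, SD 2.42) were called higher in S1. List medians were -0.09 between layers in V1, 0.57 between layers in S1 and 0.20 between areas in L5.

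Of 20 other leucine-rich repeat proteins of synapses (LRRTM, SLITRK, FLRT, NGL and LRFN families), 18 passed the filter and none was called between areas in L4, with a list median of 0.01. Between areas in L5 *Lrrtm4* was called lower in S1 (-1.18, SD 0.52), with a list median of -0.03. Between layers in V1, on the 2 usable days, *Slitrk1* (1.56), *Slitrk2* (1.56) and *Lrrc4c* (3.39) were called higher in L5, and *Lrrtm2* (-2.17), *Lrrtm3* (-2.61), *Slitrk3* (-1.24), *Slitrk5* (-1.30) and *Lrrc4* (-1.68) lower, with a list median of 0.10. Among the genes called in V1 the SD between days ran from 0.28 for *Slitrk3* to 4.62 for *Lrrtm2*. Between layers in S1 *Flrt1* (1.18), *Flrt2* (2.14) and *Lrrc4c* (2.99) were called higher in L5 and none lower, with a list median of 0.41. Of all genes, 7.46% were called higher and 8.70% lower in L5 in V1, and 9.88% and 4.17% in S1. *Elfn1* was lower in L5 in both areas, and *Lrrc4c*, which encodes the axon-binding adhesion protein NGL-1, was higher in both.

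Reads of other cell types differed between the groups. The 6 oligodendrocyte markers summed to 1115 CPM in S1 L4, 267 in V1 L4, 731 in S1 L5 and 239 in V1 L5, ranging over single cells from 0 to 9702, 3717, 5580 and 3870, with *Mbp* read in 85 cells but *Mog* in 3 and *Mag* in 5. By these totals they were higher in S1 in both layers. Across cells the correlation with the summed oligodendrocyte list was -0.20 for *Grm5* and 0.00 for *Elfn1*, and the part of these markers in the differences was not tested. Here and for the lists below, group and day means were not subtracted before correlation. The 6 parvalbumin interneuron markers summed to 696, 506, 777 and 657 CPM in the same order, ranging from 0 to 1584, with *Kcnc1* read in 97.2% of cells, *Syt2* in 1 cell and *Pvalb* in 36 cells. Their r was -0.20 with *Elfn1* and 0.21 with *Grm5*. The 6 markers of VIP and Lamp5 interneurons summed to 27.7, 142.9, 12.9 and 59.2 CPM and reached 989 in 1 V1 L4 cell. *Vip* was read in 3 cells and *Calb2*, which encodes calretinin and is also known from some SOM+ interneurons, in 28. *Calb2* moved with *Grm5* between areas in L4, where it was called lower in S1 (-2.44, SD 0.83, 5 of 5 days), and it was also called lower in L5 than in L4 in V1 (-3.07, SD 1.98), where *Grm5* was not. The summed list had an r of 0.27 with *Grm5*, and its part in the L4 difference was not tested. The 6 microglia markers summed to 149.3, 198, 104.9 and 422 CPM, the 5 oligodendrocyte precursor markers to 35.5 or less and the 7 excitatory markers to 31.5 or less, and the 6 SOM markers to 4766 to 6323 CPM.

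Of the 4 S1 L4 cells with an *Sst* count of 0, 3 had no *Elfn1* read. On days 2, 3 and 4 the count was 0 of 1113591, 0 of 1197275 and 0 of 2889474 reads, for which 3 counts would be 2.69, 2.51 and 1.04 CPM, and on day 5 it was 90 of 307046 (293 CPM). Of the 34 kept S1 L4 cells 33 were above the 3 cells at 0, while 13 were above the day 5 cell and 21 below it. *Grm7* followed the same cells, with 0, 0 and 0 counts and 61 counts (199 CPM) on day 5. *Grm5* was read in 3 of the 4, with 0, 31.7, 161.3 and 798 CPM, the last above all 34 kept cells. *Grm3* had 0, 219, 0 and 110.7 CPM, of which the 2 values above 0 exceeded all 34 kept cells, and *Grm2*, *Grm4* and *Grm8* had 0 counts in all 4. *Pvalb*, the calcium-binding protein gene of basket cells, was at 758, 502, 921 and 94.4 CPM, in the first 3 above all 34 kept cells, so the 3 cells without *Elfn1* were those highest in *Pvalb*. The paper set aside 3 fast-spiking cells without SOM reads that mapped to a parvalbumin type, and calls them likely basket cells. Whether they are the 3 cells highest in *Pvalb* here is not given by the labels. If so, counting them as S1 L4 adds another cell type to the SOM+ cells. The 4 cells were few and from 1 area and layer, and no comparison beyond their values was made.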

How the data were processed

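Patch-seq libraries of SOM-Cre/Ai9 mice were analyzed, with 1 cell per library and sample. Per the study's methods, content of patched cells was reverse transcribed, amplified and tagmented, and single-end reads were aligned to mm10. The submitters' processing notes name STAR 2.4.2a and bcl2fastq 2.20. The authors deposited raw read counts per gene, without normalization or molecular identifiers, and RPKM values computed by the authors with rpkmforgenes on RefSeq models. The counting program and its use of strand are not given in the sources used here. A deposited table of cell descriptions was not used, and 0 columns of per-sample values were left out.

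Counts were summed per symbol, scaled to a total of 1000000 per cell (CPM), and expressed as log2(CPM + 1). Groups follow the region and layer labels. No test was made, since no animal is named: differences of group means were set beside differences within recording days. Layer comparisons used June and July dates. The 7 genes, the gene lists and the marker lists were chosen with earlier results of these data known. Named genes were these 7, list members where a call named 5 or fewer, and the 4 genes most correlated with each of *Elfn1*, *Grm5* and *Grm7*. Alternatives were TMM scaling (edgeR 4.0.16 in R 4.3.3), thinning to 250000 reads, pseudocounts of 0.1 and 10, at least 4000 genes, *Sst* count 0 cells kept in, deposited RPKM, no filter on low counts, a threshold of 2, detection from 5 counts and each day left out. Scripts used SciPy 1.17.1, matplotlib 3.10.9, pandas 2.3.3 and NumPy 2.4.6 under Python 3.11.15 and were tested on simulated data. Some genes of the lists are not reported here.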

Additional observations from a re-analysis of the deposited data

Results flagged for a closer look

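Among 14 sets of 4 to 10 values checked for a value far from the rest, 3 stood out, and chance alone would pick about 1 in 20 such sets. In the 4 cells with an *Sst* count of 0, the day 5 cell stood apart for *Elfn1* (293 CPM) and for *Grm7* (199 CPM), the other 3 being at 0 for both. With 3 values tied at 0, these flags show only that 1 cell had reads, and the rate of 1 in 20 does not apply to them. Among the 4 recording days of the L5 comparison between areas, day 6 stood apart for *Grm7* (-3.79 on the log2 scale, against 1.02 to 1.99).

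Reads of the 7 genes were also present in cells that were left out. Both V1 L4 cells with fewer than 1500 genes had *Elfn1* reads, at 1089 CPM on day 2 (99195 reads in all) and 743 CPM on day 3 (255640 reads), and 0 counts of the 6 receptor genes. The V1 L5 cell left out for its *Slc17a7* reads, from day 5, had 53.96 CPM of *Grm3*, 633 of *Grm5* and 132.9 of *Grm7*, and 1 count of *Elfn1* among 759764 reads.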

How the results depend on the processing

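Of 588 recomputed values 550 stayed within the margin set for their kind and 38 moved beyond it. The margin was the spread between days for differences, the interval for detection and the SD over cells for group totals. Correlations and numbers of called genes had fixed margins, which are not a spread between days. None of the 406 recomputed differences reversed a call. The L4 area difference kept its direction in 19 of 19 alternatives for *Elfn1* (0.91 to 1.87) and for *Grm5* (-3.46 to -1.74), and the S1 layer difference in 13 of 13 for *Grm5* (1.85 to 4.08). With the threshold raised to 2 on the log2 scale, the number of the 7 genes called fell from 2 to 1 between areas in L4, from 2 to 0 between layers in V1 and from 4 to 2 between layers in S1. With single days left out it ranged from 0 to 1 between areas in L5 (1 without day 6) and from 1 to 2 between layers in V1 (1 without day 3). *Elfn1* between layers in S1 was -1.36 with the *Sst* count 0 cells kept in, against -2.49. *Grm3* between layers in S1 ranged from 0.64 with a pseudocount of 10 to 2.54 with 0.1. *Grm7* between layers in V1, which was not called, changed sign (-1.42 as the mean of the days, 1.01 without day 5). The causes were not tested. No paired analysis was possible because no test was made and the labels give no replicate numbers. Groups share recording days, and the mean of the within-day differences between areas in L4 was 1.86 for *Elfn1* and -2.42 for *Grm5*. Depth limits the genes near 0: after thinning, *Grm2* was read in 0 of 15 V1 L5 cells.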
